A study of Mus musculus with 2 samples.

Results

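Cytosolic ribosomal protein genes encode the protein subunits of the ribosome in the cytoplasm. They were taken from the 32285 listed genes by symbol: every gene whose symbol starts with Rps or Rpl and a digit, plus Rpsa, Rplp0, Rplp1 and Rplp2, without names ending in -ps and without the Rps6k kinases. This gave 86 genes, of which 77 encode core subunits (46 of the large and 31 of the small subunit). The other 9 are paralogues, a retrocopy or a binding protein. Subunits are made in near-equal amounts and assembled with ribosomal RNA in the nucleolus. Their mRNAs share a pyrimidine tract at the 5′ end, the TOP motif, through which growth signalling sets their translation. Neutrophils build most of their ribosomes and granule proteins as precursors in the marrow and are short-lived once mature.

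The cells came from the gingiva of mice, measured by single-cell RNA sequencing. Recipient mice had received bone marrow that was 10% Tet2-/- or, as control, 10% Tet2+/+ (BMT, bone marrow transplantation). All mice, 12 weeks after the graft, carried a ligature for 5 days, a thread tied around a tooth that sets off gum inflammation (ligature-induced periodontitis, LIP). Tet2 encodes an enzyme that oxidises methylated DNA and is often lost in clonal haematopoiesis. Per the protocol, the sort took CD45.2+CD11b+ cells from Tet2-/- BMT mice and CD45+CD11b+ cells from Tet2+/+ BMT mice, although both titles name CD45.2+CD11b+. By the protocol the first group would hold cells of the CD45.2 allotype alone, while the second could hold donor and host cells. By the titles both would hold the CD45.2 allotype alone. The number of mice pooled and the rest of the graft are not stated in the labels used here. There was 1 library per group, called the Tet2-/- and the Tet2+/+ library below. Every difference between them is therefore a difference between 2 libraries, with no replicate check and no test.

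The Tet2-/- library held 93919724 and the Tet2+/+ library 100782700 UMIs (unique molecular identifiers, each counting 1 captured mRNA end). After filtering, 9596 and 11672 cells remained, with medians of 5920 and 5009 UMIs per cell. Of their barcodes 31 occurred in both libraries. Tet2 itself stood at 97.8 and 81.7 CPM (a gene's UMIs scaled to a common total per library or cell class), but 3′ ends outside a deleted part check nothing. Xist, made from an inactive X chromosome, stood at 375.2 against 0.0796 CPM (32001 and 7 UMIs). The Y-linked Ddx3y stood at 11.2 against 82.8 CPM (957 and 7279 UMIs). So the Tet2-/- library held transcripts of both sexes, and the Tet2+/+ library held almost no Xist. Sex and group cannot be told apart, and the source of the Ddx3y UMIs in the Tet2-/- library was not tested. Cells were clustered without the ribosomal protein genes and named by markers. Although the sort was for CD11b, B, T and NK cell-like cells made up 6.65% and 9.06% of cells.

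Windows of 30 bases (15 on each side of the RefSeq start, GRCm38.p6) are printed for 7 members that the results turn on. Capitals mark a C followed by at least 4 more C or T, beginning within 5 bases of the start on the sense strand. The windows of Rpsa, Rpl23 and Rpl10 hold no such tract. The start used in these cells was not measured, so a tract at another start would not be seen. For Rpsa the GENCODE gene starts at 120127689, before the window. Rps9 and Rps27 are the members lowered least in neutrophils, and Rps27rt is the retrocopy of Rps27. Rpl12 and Rpsa are among the members that differ most between cell types, Rpl23 is the steadiest, and Rpl10 is X-linked.
Rps9, chr7:3704026-3704055, plus strand: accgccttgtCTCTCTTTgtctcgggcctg
Rps27, chr3:90213634-90213663, minus strand: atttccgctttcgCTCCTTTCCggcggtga
Rps27rt, chr9:114982725-114982754, minus strand: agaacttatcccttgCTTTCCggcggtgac
Rpl12, chr2:32961697-32961726, plus strand: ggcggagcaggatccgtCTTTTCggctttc
Rpsa, chr9:120127751-120127780, plus strand: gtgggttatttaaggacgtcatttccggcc
Rpl23, chr11:97782425-97782454, minus strand: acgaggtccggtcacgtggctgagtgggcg
Rpl10, chrX:74270801-74270830, plus strand: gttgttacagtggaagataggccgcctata
The RefSeq table held promoters for 66 of the 86 members, 57 of them core subunits. Such a tract was found in 27 of the 57 core subunits (47.4%) against 21.2% of all 27025 genes in the table. Within 300 bases around the start, on either strand, CCGGAAG occurred in 42.1% of core subunits against 9.93% of all genes. AAGATGG occurred in 15.8% against 7.28%, and TATAAA in 10.5% against 15.7%. A match is a run of letters and not a measured site.

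Ribosomal protein UMIs made up 12.2% of all UMIs of kept cells in the Tet2-/- and 11.5% in the Tet2+/+ library, and this average hid a wide range. Neutrophil-like cells, the most numerous class with 3803 and 4558 cells, had the lowest pooled share. It was 2.93% (95% interval 2.92% to 2.94%) in the Tet2-/- and 3.30% (3.29% to 3.31%) in the Tet2+/+ library. Immature neutrophil-like cells had a pooled share of 5.98% and 4.90%. Their median cell had less, 2.52% and 2.38%, against 2.85% and 3.25% for the median neutrophil-like cell. T cell-like cells stood at 25.5% and 24.8%, osteoclast-like cells at 25.04% and 25.09%, and dendritic cell-like cells at 24.6% and 23.8%. B cell-like cells had 23.0% and 23.1%, NK cell or ILC-like cells 23.7% and 21.1%. Monocyte-like cells had 17.8% in both, macrophage-like cells 15.2% and 14.5%, mast cell or basophil-like cells 14.9% and 16.4%, and epithelial-like cells 12.3% and 10.1%. Intervals are exact binomial (Clopper-Pearson), cover counting error only and are far narrower than the spread among cells.

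The order of the classes was alike in both libraries at its ends, while neighbours were not separated. In the Tet2-/- library the middle 50% of neutrophil-like cells spanned 2.10% to 3.77%, and that of monocyte-like cells 15.1% to 20.3%, so these did not overlap. T, osteoclast, dendritic and B cell-like cells overlapped throughout. Taking monocyte- and macrophage-like cells together, the share was 5.82-fold that of neutrophil-like cells in the Tet2-/- and 5.09-fold in the Tet2+/+ library. For the 3 lymphoid classes together it was 8.27-fold and 7.14-fold. Counted per cell, neutrophil-like cells held on average 126.5 and 141.2 ribosomal protein UMIs, monocyte-like cells 2883 and 2521, and dendritic cell-like cells 4442 and 3948. Fewer mRNAs in a cell and less efficient capture from it cannot be told apart in UMI counts.

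**Figure D1:**
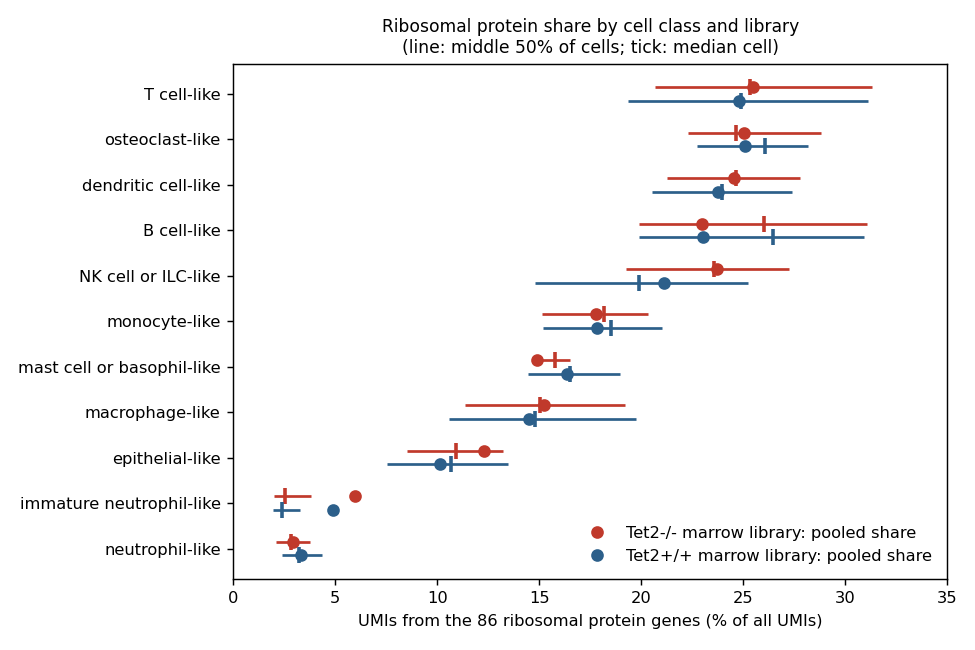
Share of UMIs from the 86 ribosomal protein genes (x axis, percent) for 11 cell classes (y axis) in the Tet2-/- (red) and Tet2+/+ (blue) marrow library; dots are pooled shares, lines the middle 50% of cells and ticks the median cell. Both neutrophil classes lie below 6%, and lymphoid, dendritic and osteoclast-like cells above 21%; in immature neutrophil-like cells the pooled share lies outside the middle 50% of cells.

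Free RNA bears on the low end. Barcodes of 1 to 50 UMIs, which hold no cell, had a ribosomal protein share of 12.4% and 12.0%, above that of neutrophils. The free amount per neutrophil-like cell depended on the genes used to estimate it. Haemoglobin and immunoglobulin genes gave 754.8 and 1251 UMIs, at which 74.0% and 106.4% of the ribosomal protein UMIs of neutrophil-like cells would be free RNA. A part above the whole is not possible, so this amount was too high in the Tet2+/+ library. Haemoglobin was also uneven among neutrophil-like clusters. In the Tet2-/- library it took 0.310% of UMIs in the cluster led by Csf3r against 0.00502% in that led by Retnlg and Mmp8. In the Tet2+/+ library it took 0.242% in the cluster led by Rsad2 against 0.00214% in that led by Retnlg and Mmp8. The complement genes C1qa, C1qb and C1qc, made by macrophages and chosen after seeing the data, gave 204.7 and 283 UMIs, or 20.1% and 24.1%. For single members the part by C1q genes was unequal: 6.05% and 8.19% for Rps9, but 88.4% and 80.9% for Rpl10a, with 9 and 10 of 77 core subunits above 50%. For those above 50%, most of what was counted in neutrophil-like cells lies within that amount.

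Clusters within a class differed as well. Among monocyte-like cells, the cluster led by Fn1 and Ccr2 had 18.2% and 18.8%, and the one led by Ace, a gene of patrolling monocytes, 13.4% and 14.3%. A dividing cluster led by Stmn1 and Top2a had 18.8% and 18.9%, close to the first. Of 2 B cell-like clusters, 1 had 28.8% and 29.1%, and the other 17.5% and 16.9%. In the second, the neutrophil transcripts S100a8 and S100a9 made up 5.893% and 8.0003% of UMIs, against 0.503% and 0.559% in the first, and its median cell held 11211 and 9844 UMIs against 4609 and 4538.5. The part of cells captured together in these values was not tested.

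Along the neutrophil lineage the share was highest in the least mature cells, lowest around the first mature cluster and higher again beyond it. Cells with the most primary granule transcripts sat in a cluster led by Elane, Prtn3 and Mpo, whose granules are filled at the promyelocyte stage. Its pooled share was 10.8% in both libraries, but its median cell had 5.81% and 5.57%, so cells in it were sorted by the share of Mpo, Elane, Prtn3 and Ctsg in their UMIs. In cells with 1% or more (55 and 41 cells), ribosomal protein genes made up 25.3% and 26.1% of UMIs, as much as in T cells. In cells with 0.05% to 1% (47 and 22 cells) they made up 10.6% and 10.0%, and below 0.05% (229 and 133 cells) 5.22% and 5.37%. These are ranges of a score, cut after the values were seen, with 18 and 9 cells between 0.5% and 2%. The median share of S100a8 and S100a9 was 7.51% and 5.64% in the first range and 31.6% and 35.1% in the last. Monocyte markers had a median of 0.479% and 0.408% of UMIs in the first against 0.108% and 0.0961% in the last, and their part in the result was not tested.

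Later clusters had still lower shares. The Camp cluster, with the secondary granule genes Camp, Ltf and Ngp, had 2.97% and 2.76%, and the Ltf and Ngp cluster 2.04% and 1.99%. A like level was found in the first mature cluster, led by Retnlg, Mmp8 and Ly6g, at 2.06% and 2.05%. It was higher in the next, led by Retnlg and Asprv1 (2.75% and 2.94%), in that led by Cxcl2 (3.34% and 3.49%), and in that led by Csf3r and Cxcr2 (4.08% and 4.38%). Of the other neutrophil-like clusters, that led by Cxcl3 and Ccl3 had 2.61% and 3.08%, and that led by Rsad2 and Ifit1 3.495% and 4.139%. A further immature cluster led by Ltf and Camp had 3.10% and 3.33%. A cluster led by Siglecf had 6.98% and 7.92%. It scored best for neutrophil markers but was left unnamed because its first gene, Siglecf, is an eosinophil marker, so it is not placed in the lineage.

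Per cell, the course was different at its end. Mean ribosomal protein UMIs per cell were 8786 and 7280 in the granule-rich cells, 333.7 and 363 in the Camp cluster and 122.2 and 131 in the Retnlg and Mmp8 cluster. In the Csf3r cluster they were 135.9 and 147.4, so little above the lowest, while total UMIs per cell were 5934 and 6399 in the Retnlg and Mmp8 cluster against 3328 and 3365 in the Csf3r cluster. S100a8 and S100a9 took 32.5% and 35.4% of UMIs in the former and 12.1% and 11.9% in the latter. With these 2 genes and the granule genes left out of the total, the shares were 3.11% and 3.22% against 4.66% and 4.98%. The Cxcl3 and Ccl3 cluster had 108.5 and 122.1 ribosomal protein UMIs per cell, the Rsad2 and Ifit1 cluster 136.5 and 171.5, and the Siglecf cluster 341.4 and 415.8.

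**Figure D2:**
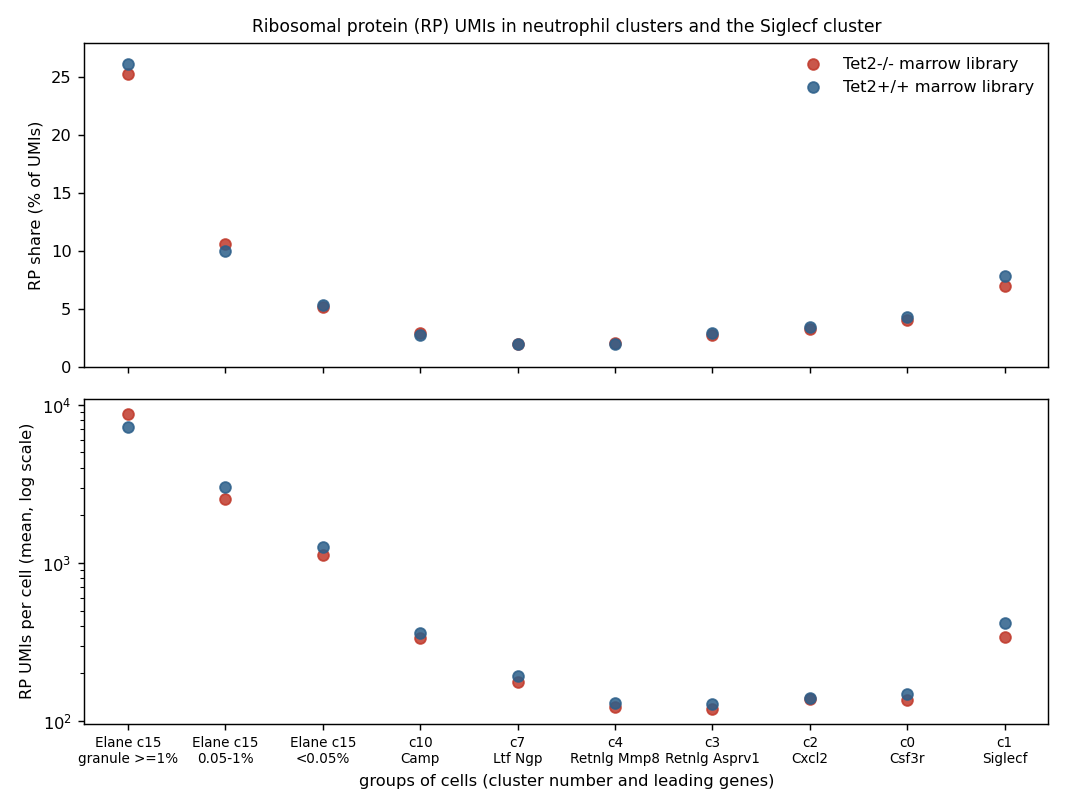
Ribosomal protein (RP) share of UMIs (top, percent) and mean RP UMIs per cell (bottom, log scale) in 9 groups of neutrophil-like and immature neutrophil-like cells and the unnamed Siglecf cluster (x axis) of the Tet2-/- (red) and Tet2+/+ (blue) marrow library. The share goes from over 25% to about 2% and is higher again to the right, while UMIs per cell stay between 119.5 and 147.4 in the 4 mature clusters drawn; 2 further mature clusters and 1 immature cluster are not drawn.

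All 77 core subunits were lower in the Retnlg and Mmp8 cluster than in the granule-rich cells, but by very different amounts. The median was 14.2-fold in the Tet2-/- and 14.7-fold in the Tet2+/+ library. Rps9, a small subunit protein, was lowered least, from 3346 and 3031 CPM to 1657 and 1591 CPM, or 2.02-fold and 1.91-fold. Rps27 differed by 2.49-fold and 2.53-fold and Rps27a, which is made as a fusion with ubiquitin, by 4.18-fold and 5.36-fold. At the other end Rpl10a was lowered from 2400 and 2178 CPM to 30.3 and 36.3 CPM, or 79.2-fold and 59.9-fold. Rps20 was lowered by 63.1-fold and 65.3-fold. For both, over 50% of the UMIs in neutrophil-like cells lay within the free RNA amount by C1q genes. From the Retnlg and Mmp8 cluster to the Csf3r cluster all 77 were higher in CPM, by a median of 2.07-fold and 2.30-fold. Rps27a differed least (1.24-fold and 1.23-fold) and Rpl14 most (3.90-fold and 4.43-fold). Per cell, ribosomal protein UMIs differed little there (122.2 and 131 against 135.9 and 147.4). How many of all genes went the same way was not counted in either comparison, so these counts have no background beside them.

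So the ribosomal protein mRNA of mature neutrophils was made up differently. Rps9 took 7.31% of ribosomal protein UMIs in neutrophil-like cells, both libraries summed, against 2.22% in monocyte-like and 1.39% in NK cell or ILC-like cells. Rps27a took 4.79% against 2.23% in monocyte-like cells, and Rps27 4.30% against 1.33%. Lower parts were taken by Rpl10a (0.218% against 0.818%), Rpl12 (0.273% against 0.677%), Rpsa (0.564% against 1.76%) and Rps20 (0.521% against 1.47%). All of these lie near the free RNA level in neutrophil-like cells. By C1q genes, free RNA came to 88.4% and 80.9% of UMIs for Rpl10a and 55.04% and 52.25% for Rpl12. For Rpsa it was 71.7% and 61.8%, and for Rps20 60.52% and 62.65%. Rpsa is a small subunit protein also known as a laminin receptor precursor, and Rpl12 lies at the base of the stalk. Of the 3 stalk proteins, Rplp2 took 1.155% in neutrophil-like and 1.163% in monocyte-like cells and Rplp1 1.37% and 1.49%, while Rplp0, their anchor, took 0.931% and 1.82%.

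**Figure D3:**
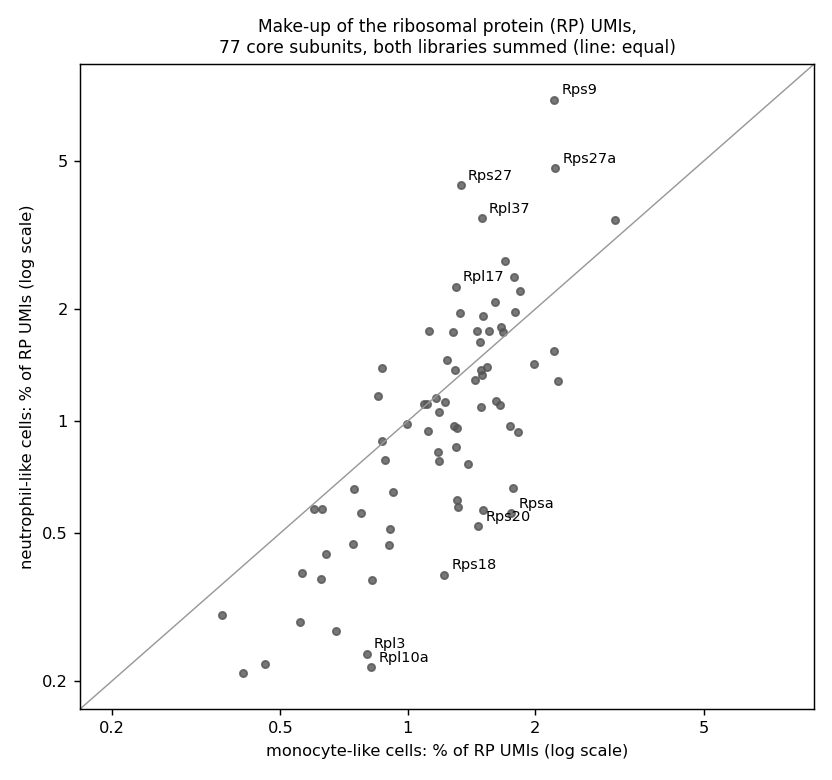
Percent of ribosomal protein (RP) UMIs taken by each of 77 core subunits in monocyte-like (x axis, log scale) and neutrophil-like cells (y axis, log scale), both libraries summed; the line marks equal parts. Rps9, Rps27a, Rps27, Rpl37 and Rpl17 lie farthest above the line, and Rpl10a, Rpl3, Rps18, Rps20 and Rpsa farthest below.

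Other members kept their part in every cell class. Rpl23 took between 1.79% (monocyte-like) and 2.03% (mast cell or basophil-like) of ribosomal protein UMIs over 11 classes, a log2 range of 0.19. Rpl11, a subunit that can bind the p53 inhibitor Mdm2, ranged over 0.27, Rpl18 over 0.31 and Rpl29 over 0.34. The widest ranges among members with at least 200 UMIs were those of Rpl3l (6.39), Rps27rt (2.61), Rps27l (2.45), Rps27 (2.42) and Rps9 (2.39). Among the most abundant members by total UMIs were Rps29, Rps9, Rps24, Rps27a and Rpl13. Of these Rps29 led with 304537 and 366519 UMIs in kept cells, and Rps29 and Rps24 took 3.48% and 1.54% of ribosomal protein UMIs in neutrophil-like cells. UMIs count mRNA ends and were not divided by length.

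Gene by gene, members were compared with all genes at a size rule of 1.5-fold. It used log2 ratios with a pseudocount of 10 CPM, for genes with 50 CPM or more in either group and 100 UMIs or more over both. Of the 86 members 79 passed this filter between the libraries in neutrophil-like cells, all 77 core subunits among them. All 77 core subunits were at 50 CPM or more in neutrophil-like cells of both libraries, so none of them passed only through another class. Over neutrophil-like cells in both libraries, 77 of 77 core subunits were past 1.5-fold higher in monocyte-like cells, against 44.9% of all genes tested. The medians were 2.66 for core subunits and 0.49 for all genes on the log2 scale. In macrophage-like cells 76 of 77 were (all genes 42.0%), and in dendritic (41.8%), B (38.5%) and T cell-like cells (43.4%) 77 of 77. In immature neutrophil-like cells, 47 of 77 were higher, against 19.0% of all genes, and 1, Rps27, was lower, against 787 of 2338 genes. The pooled share of that class was 0.830-fold that of neutrophil-like cells without the Elane cluster. Of the other members, Rpl22l1, Rpl7l1 and Rps27rt were below 50 CPM in neutrophil-like cells of both libraries, and Rpl36al and Rps27l in the Tet2-/- library, so where they passed they could do so only through the other class there. The classes share the neutrophil-like cells as reference, so these counts are not independent.

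Between the libraries, the ribosomal protein share of neutrophil-like cells was lower in the Tet2-/- library, by a ratio of 0.887 (0.884 to 0.891). It was below 1 in 5 of the 6 clusters of the class, from 0.845 in the interferon-response cluster led by Rsad2 and Ifit1 to 0.957 in the Cxcl2 cluster. The exception was the Retnlg and Mmp8 cluster, at 1.01 (0.997 to 1.02). The ratio was 1.00 with TMM scaling, whose factors were 0.941 for the Tet2-/- and 1.06 for the Tet2+/+ library and were computed with the members included. TMM moved the median log2 ratio of all genes from -0.07 to 0.09, so it did not centre the median gene. The libraries filled the class unequally: the Csf3r cluster held 783 and 1441 cells, and a cluster led by Cxcl3 and Ccl3 606 and 233. The mean of the ratios within clusters was 0.919. With the Siglecf cluster (437 and 1559 cells) and a cluster led by Obp1b added to the class, the pooled ratio was 0.730, while these clusters' own ratios were 0.882 and 0.823. After subtraction of free RNA in the amount from haemoglobin and immunoglobulin genes it was 1.62, the opposite direction. That amount was more than all ribosomal protein UMIs of the class in the Tet2+/+ library (106.4%), so no direction can be read from this value. With the amount from C1q genes the ratio was 0.916.

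No member passed 1.5-fold between the libraries in neutrophil-like cells (0 of 79), where 5.36% of all genes did. Of all genes 62 were higher and 56 lower (52.5% higher), and with TMM scaling 134 and 31 (81.2% higher). The median member was at -0.17 against -0.07 for all genes on the log2 scale, and 10 of 79 members were above 0, as were 804 of all 2202 genes. Highest were Rpl10 with 255.6 and 234.4 CPM (ratio 1.09, 1.045 to 1.137), Rps27a with 1561 and 1447 CPM (1.08) and Rpl13a with 284.9 and 270.45 CPM (1.053). Lowest by the log2 ratio with the pseudocount were Rps28 with 239 and 358.6 CPM (0.666, 0.641 to 0.693), Rpsa with 142.1 and 205.4 CPM (0.692) and Rpl38 with 349.2 and 497.5 CPM (0.702). Without it, Rpl36al (0.669) and Rpl10a (0.698) were also below Rpl38. Rpsa is also a member with much of its neutrophil UMIs at the free RNA level (71.7% and 61.8%). With the Siglecf and Obp1b clusters included, 31 of 80 members were lower by 1.5-fold, as were 202 of all 2435 genes. With finer clusters 10 of 79 members were, as were 76 of all 2284 genes. After subtraction of free RNA by haemoglobin and immunoglobulin genes, 30 of 37 members that passed the filter were higher, as were 117 of all 2082 genes.

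In immature neutrophil-like cells the ratio ran the other way, 1.22 (5.98% against 4.90%), yet its 4 clusters were at 0.933 to 1.08. The Elane cluster, whose own ratio was 0.999, held 331 of 1418 cells of the class in the Tet2-/- and 196 of 1250 in the Tet2+/+ library. Rpl12 alone passed 1.5-fold (1 of 80 members, 418.7 and 270.5 CPM, against 4.29% of all genes). Relative to neutrophil-like cells the immature class was 1.74-fold higher as the mean of both libraries, but 0.830-fold without the Elane cluster and 0.9497-fold without the 5% of cells with most UMIs.

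Monocyte- and macrophage-like cells held nearly the same pooled share in both libraries, at ratios of 0.997 and 1.0499. Single clusters differed more. The monocyte clusters were at 0.969 (led by Fn1 and Ccr2), 0.942 (Ace) and 0.997 (Stmn1 and Top2a). The macrophage clusters lay on both sides, at 1.06 and 0.906, the latter with medians of 1180 and 1081 UMIs per cell. None of 81 members passed 1.5-fold in either class, against 2.79% of all genes in monocyte-like and 2.45% in macrophage-like cells. In monocyte-like cells Rps20 (2833 and 2350 CPM, ratio 1.21) and Rpl12 (1304 and 1088 CPM, 1.20) were among the highest. Lowest were Rps27 (1974 and 2859 CPM, 0.690), Rps29 (4978 and 6139 CPM, 0.811) and Rps28 (2814 and 3457 CPM, 0.814).

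In 6 of 7 classes examined, most members with short coding sequences were lower in the Tet2-/- library. Immature neutrophil-like cells were the exception in sign, with 3 of 18 core subunits below 360 bases lower and a median log2 ratio of 0.09. Longer ones were higher still in that class, at 0.34 from 360 to 600 bases and 0.41 from 600 bases. Rpl41, with a coding length of 75 bases the shortest, Rpl39 (153), Rps29 (168), Rps28 (207), Rpl38 (210), Rps21 (249), Rps27 (252), Rpl37a (276) and Rpl37 (291) were all below 1 in monocyte, macrophage, dendritic, B and T cell-like cells. Of these 18 core subunits, 14 were lower in the Tet2-/- library in T cell-like cells, against 1 of the 59 longer ones. In B cell-like cells it was 16 of 18 against 5 of 59, and in monocyte-like cells 14 of 18 against 11 of 59. In neutrophil-like cells, where most members were lower, the short ones had a median log2 ratio of -0.31 those from 360 to 600 bases -0.13 and those of 600 bases or more -0.16, so the ratio did not go up with length throughout. The threshold of 360 bases was set after the values were seen, with Rps20 (357) just inside and Rpl35 (369) just outside.

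Across the 77 core subunits, coding length was set against the log2 library ratio. Spearman correlations were 0.51 in monocyte-like, 0.70 in B cell-like, 0.73 in T cell-like and 0.32 in neutrophil-like cells. They were 0.60 in immature neutrophil-like, 0.57 in macrophage-like and 0.53 in dendritic cell-like cells. With transcript length in place of coding length they were lower in each class, from 0.20 in neutrophil-like to 0.40 in immature neutrophil-like cells. In T cell-like cells that value was 0.36. All points share the same pair of libraries, and genes are not independent replicates. Among other genes the correlation with coding length lay between -0.09 in T cell-like and 0.12 in dendritic cell-like cells. Other genes below 360 bases had a median log2 ratio of -0.05 in T, -0.10 in B and 0.05 in monocyte-like cells, where those of 600 bases or more were at -0.01, -0.01 and 0.04. In neutrophil, macrophage and dendritic cell-like cells the short ones were at -0.16, -0.08 and -0.08, against -0.07, -0.02 and -0.01. In immature neutrophil-like cells they were at 0.08 against 0.13. Genotype, sex and the making of the libraries cannot be told apart here.

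**Figure D4:**
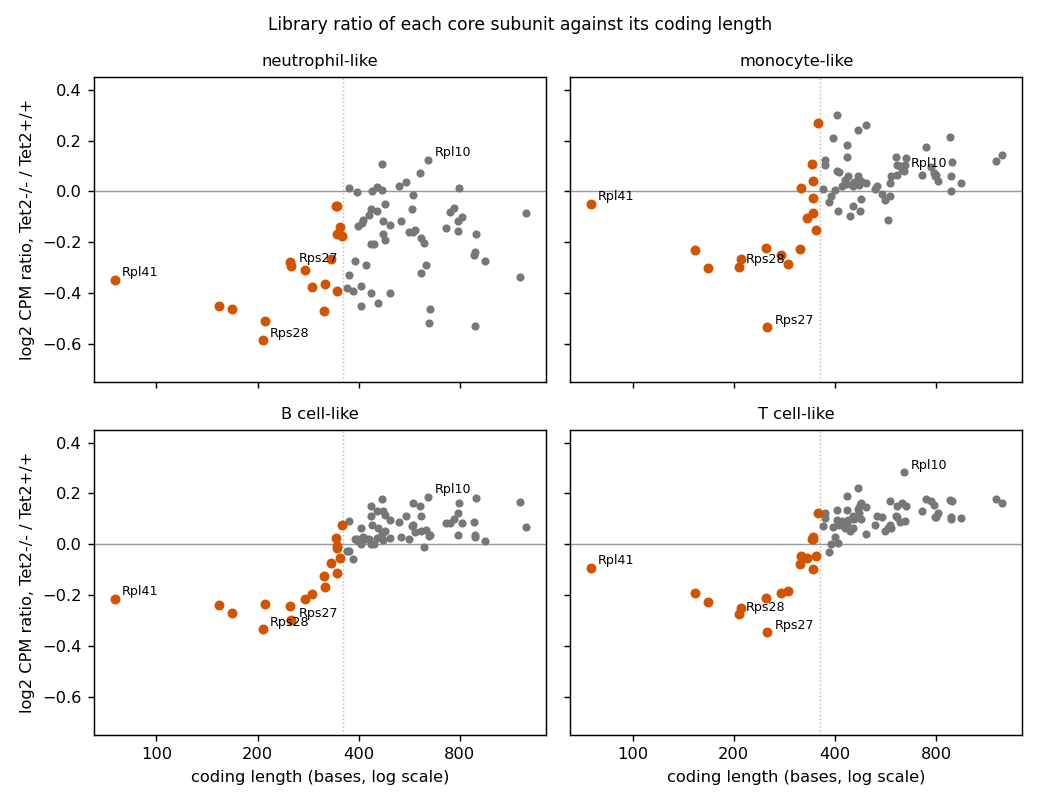
Log2 ratio of CPM between the Tet2-/- and Tet2+/+ marrow library (y axis) against coding length (x axis, bases, log scale) for 77 core subunits in 4 cell classes; orange points are below 360 bases. Most orange points lie below 0 in all 4 panels, and in B and T cell-like cells nearly all longer members lie above it.

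X-linked members showed no common direction. In neutrophil-like cells Rpl10 was at 1.09 and Rps4x at 0.924 (176.2 and 190.8 CPM), and Rpl36a at 0.776 (60.1 and 77.4 CPM) and Rpl39 at 0.732 (365.4 and 499.2 CPM). Rpl10 and Rps4x were above 1 in T cell-like cells, at 1.22 and 1.11, and Rpl39, at 0.876, was below. Of the stalk proteins Rplp0 was at 0.828, Rplp1 at 0.961 and Rplp2 at 0.890 in neutrophil-like cells.

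Paralogues differed in their level. Rpl36al had 37.9 and 56.7 CPM in neutrophil-like and 971.9 and 927.7 CPM in monocyte-like cells, where Rpl36a had 821.9 and 814.9 CPM. Rpl22l1 had 42.2 and 44.4 CPM in neutrophil-like and 591.1 and 598.8 CPM in T cell-like cells. Rps27l, a p53 target in other settings, had 40.8 and 54.7 CPM in neutrophil-like, 335.9 and 288.1 CPM in monocyte-like and 122.3 and 121.9 CPM in B cell-like cells, where its parent Rps27 stood at 5318 and 6547 CPM. Rpl7l1 had 17.0 and 19.7 CPM in neutrophil-like and 58.1 and 51.2 CPM in monocyte-like cells. The binding protein Rps19bp1 had 3.772 and 6.099 CPM in neutrophil-like and 31.9 and 31.4 CPM in monocyte-like cells.

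Rpl3l, known as the muscle form of Rpl3, was unusual. It stood at 16.2 and 21.1 CPM in neutrophil-like cells and at 1.04 and 2.45 CPM in T cell-like cells, the reverse of Rpl3, with 64.9 and 81.9 against 2351 and 2081 CPM. It lies on chromosome 17 (24727820 to 24736143, GRCm38), and whether counting used strand is not stated in the labels used here. Rps27rt had 17.2 and 27.2 CPM in neutrophil-like cells and a library ratio of 0.617 in monocyte-like cells, near the 0.690 of Rps27, from which its reads may not be separable. Rpl39l had 9 and 45 UMIs in all kept cells, and the testis gene Rpl10l was listed at 0 in both libraries.

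Other genes of the translation machinery followed the members across cell types. Over 20 profiles (class by library, at least 30 cells), genes with levels most like the summed ribosomal protein share included Rack1 (Pearson's r 0.99), Eef1b2 (0.98), Gm10076 (0.98) and Eif3m (0.98), among 5634 genes. The profiles share 2 libraries. Rack1 encodes a ribosomal subunit outside the symbol rule, and Eef1b2 and Eif3m encode translation factors. Of 18 other TOP transcripts, 9 passed the filter in neutrophil-like cells themselves. All 9 were over 1.5-fold higher in monocyte-like cells, where 44.9% of all genes were, from Pabpc1 (log2 1.18) to Eef1a1 (log2 3.07). The other 9, Npm1 (log2 3.83) among them, passed only through monocyte-like cells, which fixes their direction. Fau, whose product includes a subunit outside the rule, was an exception: with 3816 and 3736 CPM in neutrophil-like cells it stood above every member, and its log2 difference in monocyte-like cells was 0.60.

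Genes that make and control ribosomes were mostly too low in neutrophils to compare. Of 30 ribosome biogenesis genes 2 passed the filter in neutrophil-like cells: Ncl, for nucleolin, was higher in monocyte-like cells (log2 1.66), and Ubtf, a factor of ribosomal RNA transcription, differed by 0.36. Of 78 mitochondrial ribosomal protein genes 5 passed there. Mrpl52 (log2 2.12), Mrps24 (1.27), Mrpl20 (1.10) and Mrps21 (0.75) were past 1.5-fold higher in monocyte-like cells, and Mrpl33 was at -0.41. Of 14 growth control genes 5 passed in either class: Larp1, which binds TOP mRNAs, was higher (65.4 and 62.5 CPM against 6.87 and 10.7 CPM in neutrophil-like cells) but passed only through monocyte-like cells, and Max was lower (log2 -1.28). Eif4ebp1, which restrains cap-dependent translation, had 165.6 and 187.5 CPM in neutrophil-like against 62.2 and 68.5 CPM in B cell-like cells. Between the libraries, no gene of these lists passed 1.5-fold in neutrophil-like, monocyte-like or macrophage-like cells. Of all genes 5.36%, 2.79% and 2.45% did. In neutrophil-like cells only 9 TOP, 2 biogenesis, 4 growth control and 5 mitochondrial genes passed the filter, so a count of 0 says little about them.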

How the data were processed

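UMI counts per gene and barcode were deposited by the authors as raw matrices, empty barcodes included. Per the submitters' processing notes, reads were counted on mm10 with Cell Ranger 6.1.2, while the file headers name Cell Ranger 4. Cells with at least 500 UMIs, 250 genes and at most 10% mitochondrial UMIs were kept. Doublets were not removed. Cells were clustered on 2000 variable genes without ribosomal, mitochondrial, haemoglobin and sex-linked genes (30 components, 20 neighbours, Leiden resolution 1.0, leidenalg 0.10.2). This gave 29 clusters, of which 23 were named by the best of 17 marker lists and 6 stayed unnamed; naming conditions were set with the clusters in view. Class sums of UMIs were taken in each library. Shares carry exact binomial and ratios exact conditional binomial 95% intervals (scipy 1.17.1), for counting error only. TMM used edgeR 4.0.16. With 1 library per group there is no test.

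On simulated counts the size rule found 200 of 200 changed genes and called 0 of the rest of 2544, over all kept cells. These counts held counting error alone (Poisson), with no spread between libraries or cells. The changes were set beyond the 1.5-fold threshold, in well-counted genes. So the outcome checks the calculation only and says nothing about false calls between these 2 libraries.

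Named members were chosen by rule: all that are not core subunits, the 6 with most UMIs, the 3 highest and 3 lowest library ratios in neutrophil-like and monocyte-like cells, the 5 widest and 4 narrowest ranges between classes, the stalk proteins, Rpsa and X-linked members. Others were named after their values were seen. Some genes that the rules select are not reported here. Members and lists were chosen with earlier results of these data known. Lengths are from GENCODE M21.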

Additional observations from a re-analysis of the deposited data

Results flagged for a closer look

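Library ratios (Tet2-/- over Tet2+/+) pointed in opposite directions in the 2 neutrophil classes, and these differences were not tested. The ribosomal protein share had a ratio of 0.887 in neutrophil-like and 1.22 in immature neutrophil-like cells. By more than 1.3-fold each way the same held for Rpl12 (0.757 and 1.55), Rps19 (0.759 and 1.34), Rpsa (0.692 and 1.35), Rpl14 (0.726 and 1.31) and Rpl10a (0.698 and 1.48). By C1q genes, free RNA came to 57.55% and 57.57% of UMIs in neutrophil-like cells for Rps19 and 43.45% and 40.39% for Rpl14. For Rpl12, Rpsa and Rpl10a it was also above 50% in both libraries. Within the 4 immature clusters the ratio of the share lay between 0.933 and 1.08, and the class held more cells of the Elane cluster in the Tet2-/- library.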

How the results depend on the processing

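Values below are in one order: the library ratio of the neutrophil-like share (0.887 as reported), then the share in immature neutrophil-like (1.74), monocyte- and macrophage-like (5.44) and lymphoid-like cells (7.68) over neutrophil-like cells. Finer clusters gave 0.834, 1.60, 4.92 and 6.98, and coarser ones 5.39 and 7.57 for the last pair. Adding the Siglecf and Obp1b clusters gave 0.730, 1.36, 4.26 and 6.01. Subtracting free RNA by haemoglobin and immunoglobulin genes gave 1.62, which turned the library ratio, and 5.13, 18.3 and 26.8; this amount came to 74.0% and 106.4% of neutrophil-like ribosomal protein UMIs. Subtraction by C1q genes gave 0.916, 2.06, 6.63 and 9.43. A total without mitochondrial and the 20 most abundant other genes gave 0.896, 2.13, 4.16 and 5.88, and means over cells gave 0.869, 1.16, 5.13 and 7.52. With subunits outside the symbol rule (Fau and Rack1 among them) added and paralogues left out, they were 0.902, 1.62, 5.01 and 7.06. Without the 5% of cells with most UMIs they were 0.891, 0.9497, 5.38 and 7.82, which turned the immature ratio, as did leaving out the Elane cluster (0.830). At most 5% mitochondrial UMIs gave 1.72, 5.52 and 7.34 for the last 3, and leaving out X-linked members 1.73, 5.35 and 7.58. The library ratio was 1.0023 with TMM, which left almost no difference, and 0.919 as a mean within clusters.

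The count of members past 1.5-fold between libraries in neutrophil-like cells, 0 as reported, was 10 with finer clusters and 31 with the Siglecf and Obp1b clusters, all lower. It was 30, all higher, after haemoglobin and immunoglobulin subtraction, 1 (Rps28) with means over cells and 1 (Rpsa) after C1q subtraction. Of all genes, in the same order, 136 of 2284, 272 of 2435, 186 of 2082, 134 of 2268 and 127 of 2183 passed. Causes were not tested. The C1q, most-UMI, Elane and within-cluster alternatives were chosen after seeing the data. No paired analysis was possible because each group had 1 library.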
